A study of Mus musculus with 24 samples.

Results

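In *Trex1* knockout mice, 8 genes of the STAT and IRF families were examined by RNA-Seq in 4 organs, the heart, stomach, muscle and tongue. The genes were *Stat2*, *Stat3*, *Irf1*, *Irf2*, *Irf5*, *Irf7*, *Irf8* and *Irf9*. They were picked from the 54532 genes in each count table by their symbols in release M21 of the GENCODE annotation, and all 8 passed the filter on low counts in every tissue. Each tissue was represented by 3 control samples and 3 samples from mice given SN-011, an antagonist of the DNA-sensing adaptor STING, so that 24 samples fell into 8 groups. All mice, controls included, lacked *Trex1*, the exonuclease that clears cytosolic DNA. The labels call the controls untreated and give SN-011 at 5 mg/kg, 3 times each week over 4 weeks. In contrast, the study's methods give 10 mg/kg daily for 2 weeks from 1 month of age, with a 1% Tween 80 vehicle for the controls and a C57BL/6J background. Groups rest on the tissue and on whether SN-011 was given, which both sources state alike, while dose, schedule and control differ between them. Nothing in the labels says whether samples with the same number in several tissues came from 1 mouse.

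STAT and IRF proteins are the transcription factors that carry interferon signals into the nucleus. Type I interferon joins *Stat2* with another STAT and with *Irf9* in the complex ISGF3, which binds the interferon-stimulated response element (ISRE), whereas interferon gamma acts through STAT dimers on the gamma-activated site (GAS). Several genes of both families are themselves induced by interferon, so their mRNA is also a readout of the signal. In mice without *Trex1*, undegraded DNA activates cGAS and STING and leads to interferon production and inflammation of the heart and other organs.

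Promoter sequences from 250 bases before to 50 bases after each RefSeq start site (GRCm38.p6) were searched for the ISRE letters (GAAA, any 2 bases and GAAA again) and the GAS letters TTCNNNGAA on both strands. The members had 11 such windows. The ISRE letters were found in 2 members, *Stat2* and *Irf2*, and the GAS letters in 3, *Irf1*, *Irf2* and *Irf8*. Among all 27025 genes with such a window, 3.99% held the ISRE letters and 9.55% the GAS letters in at least 1 window. The windows with a match are shown because these letters are what STAT and IRF proteins are known to bind. Capitals mark the matches, and the *Irf2* window holds the ISRE letters first and the GAS letters after them.
Stat2 (chr10:128270248-128270547, plus strand): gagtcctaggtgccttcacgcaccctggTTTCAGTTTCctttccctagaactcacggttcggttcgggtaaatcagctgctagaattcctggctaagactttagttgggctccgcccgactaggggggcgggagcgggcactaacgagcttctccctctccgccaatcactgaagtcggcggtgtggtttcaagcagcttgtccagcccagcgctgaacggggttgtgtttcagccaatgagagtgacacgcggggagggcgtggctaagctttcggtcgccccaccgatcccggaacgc
Irf1 (chr11:53769764-53770063, plus strand): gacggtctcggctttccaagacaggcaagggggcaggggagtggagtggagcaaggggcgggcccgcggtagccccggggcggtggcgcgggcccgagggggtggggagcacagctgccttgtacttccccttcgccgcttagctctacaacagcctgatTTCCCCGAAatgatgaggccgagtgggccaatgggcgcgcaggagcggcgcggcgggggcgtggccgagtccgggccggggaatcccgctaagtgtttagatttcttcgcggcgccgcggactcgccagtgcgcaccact
Irf2 (chr8:46739495-46739794, plus strand): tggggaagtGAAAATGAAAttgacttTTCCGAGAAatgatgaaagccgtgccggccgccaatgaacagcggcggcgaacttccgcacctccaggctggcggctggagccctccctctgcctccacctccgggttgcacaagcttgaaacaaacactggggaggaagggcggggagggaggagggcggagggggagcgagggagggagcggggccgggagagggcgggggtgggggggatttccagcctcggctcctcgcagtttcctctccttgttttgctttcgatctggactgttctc
Irf8 (chr8:120736108-120736407, plus strand): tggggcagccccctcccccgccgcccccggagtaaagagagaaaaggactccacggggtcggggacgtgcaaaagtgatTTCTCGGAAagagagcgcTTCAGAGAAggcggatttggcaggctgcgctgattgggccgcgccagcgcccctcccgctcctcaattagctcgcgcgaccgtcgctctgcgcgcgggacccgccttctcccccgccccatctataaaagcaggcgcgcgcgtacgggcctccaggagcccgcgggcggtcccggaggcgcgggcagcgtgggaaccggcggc
In *Stat2* the match lay −222 to −213 bases from the start site. It lay at −90 to −82 in *Irf1* and at −241 to −232 (ISRE) and −224 to −216 (GAS) in *Irf2*. *Irf8* had GAS letters at −171 to −163 and again at −153 to −145. The windows of *Stat3*, *Irf5*, *Irf7* and *Irf9* did not hold these letters, which says nothing of sites outside the windows or of other spellings.

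Total counts were 14253416 to 18443329 per sample (median 16221409), and 3 counts, taken as the smallest level that could be shown, corresponded to 0.163 to 0.210 CPM, a floor that covers counting error only. Members had between 44 and 24878 counts in a sample, so no member was near this floor. No *Trex1* count was recorded in any of the 24 samples (0 counts each). Because *Atrip* lies over it on that strand and shared reads may be left unassigned, this does not check the genotype. Several libraries stood apart. Only 11546 genes had a count in muscle SN-011 replicate 2, where other samples had 19798 or more. Control replicate 1 of every tissue had 3060 to 13811 counts of *Xist* and 0 to 3 of *Ddx3y*, whereas the other samples had 0 to 20 and at least 825, the pattern of female against male mice. Summed over 8 stomach genes, the level was 261 to 2583 CPM in control replicates 2 and 3 of the heart, 510 to 1203 CPM in those of the muscle and 2101 to 2631 CPM in those of the tongue, but at most 65.8 CPM in the other libraries of these tissues. The defining markers of each labelled tissue were highest in that tissue.

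After SN-011 administration, the members' log2 fold changes were mostly negative, but none passed the adjusted threshold in any tissue. An adjusted p under 0.05 (edgeR's quasi-likelihood test, adjusted by Benjamini-Hochberg over every gene tested) was reached by 0 of 8 members. Of all genes, 0.328% were lower and 0.52% higher at this threshold in the heart, 0.00704% each way in the muscle, and 0% in the stomach and tongue. At an unadjusted p under 0.05, the heart had 4 lower members (*Stat2*, *Irf1*, *Irf5* and *Irf8*; 11.6% of all genes), the stomach 1 (*Irf8*; 11.4%), the muscle 3 (*Stat2*, *Irf1* and *Irf7*; 5.8%) and the tongue 5 (*Stat2*, *Stat3*, *Irf1*, *Irf2* and *Irf7*; 7.33%). *Irf2* in the muscle was the single member higher at this unadjusted threshold, which 8.96% of all genes there met, whereas 10.8% met it in the heart, 13.2% for the stomach and 5.17% for the tongue. A negative log2 fold change was found for 7 of 8 members in the heart (51.4% of all genes), for 6 in stomach samples (49.8%), for 7 in muscle samples (55.5%) and for 8 in tongue samples (51.5%). The median over the members was −0.30 (heart), −0.22 (stomach), −0.61 (muscle) and −0.43 (tongue), beside −0.01, 0.00, −0.08 and −0.01 over all genes.

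**Figure D1:**
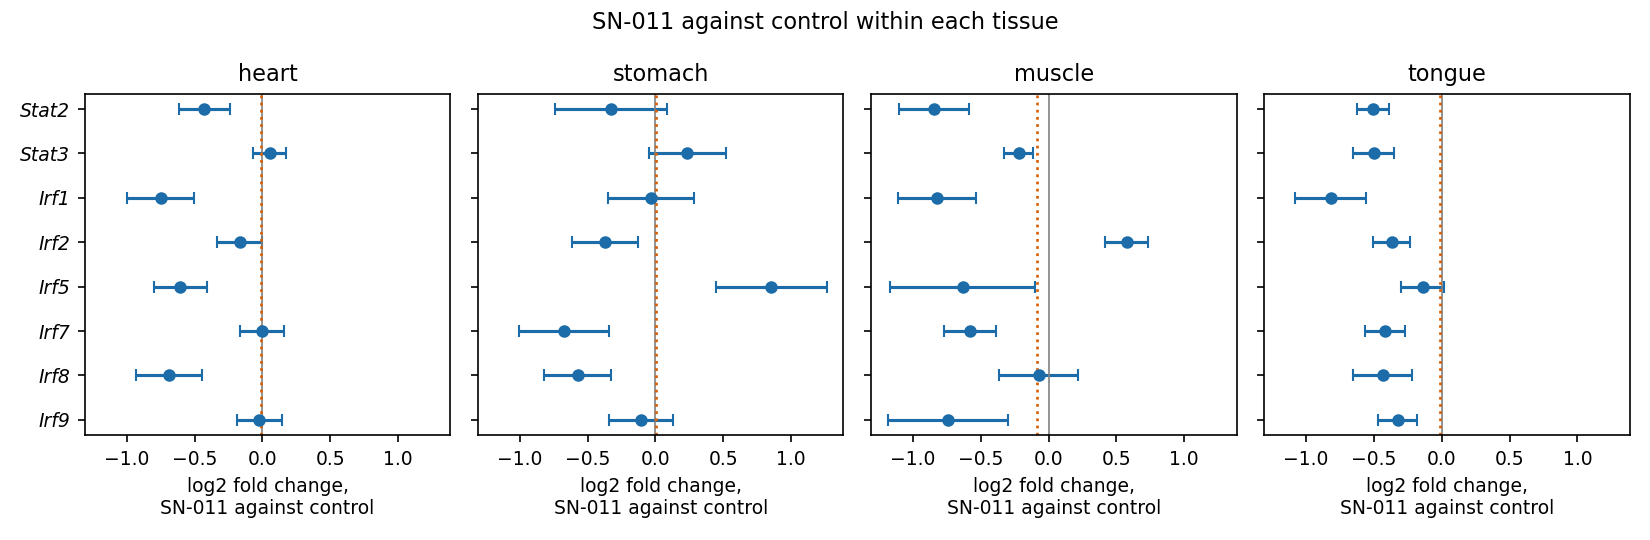
Log2 fold change of each member, SN-011 against control, in the 4 tissues (points, with bars of 1 standard error from edgeR's quasi-likelihood fit, 3 samples per group). The dotted line is the median of all genes tested in that tissue. Most points lie left of 0. On the right are *Irf2* in the muscle (0.57), *Irf5* in the stomach (0.85) and *Stat3* in the stomach (0.23) and the heart (0.05).

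The groups also separated unevenly. Every SN-011 sample lay below every control sample for 5 members in the muscle (*Stat2*, *Stat3*, *Irf5*, *Irf7* and *Irf9*; 19.8% of all genes) and for 5 in the tongue (*Stat2*, *Stat3*, *Irf1*, *Irf2* and *Irf7*; 8.38%). The stomach had 2 such members (*Irf7* and *Irf8*; 15.2%) and the heart 0 (13.1%). The reverse order held for *Irf2* in the muscle (14.7% of all genes) and for 0 members in the heart (14.1%), stomach (17.8%) and tongue (9.4%). With 3 samples against 3, the exact two-sided permutation test cannot give a p under 0.1, so separation of the samples is given here as a description. Without muscle SN-011 replicate 2, 7 members were separated in this way in the muscle (26.7% of all genes), and without control replicate 1 the heart had 2 (18.8%), the stomach 4 (24%), the muscle 6 (26.9%) and the tongue 6 (23.6%). *Irf2* stayed above in the muscle without SN-011 replicate 2 (26.2% of all genes) and without control replicate 1 (20.4%). *Stat3* came to lie above in the heart without control replicate 1 (18.9%).

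*Stat2* (ENSMUSG00000040033, GRCm38 chr10:128270559-128292849, plus strand) encodes the STAT that is particular to interferon signalling. In the tongue, *Stat2* was at 292, 286 and 318 CPM in the controls and at 198, 209 and 224 CPM after SN-011. All 3 treated samples were below all 3 controls, with means of 299 ± 16.6 and 210.4 ± 13.3 CPM (SD, n = 3 each). The log2 fold change was −0.51 and its standard error 0.12 (adjusted p = 0.268 by edgeR's quasi-likelihood test), and without control replicate 1 the adjusted p was 0.0306 at −0.52, in a fit that called 8.04% of all genes lower. In the muscle, *Stat2* was at 34.7, 37.0 and 38.3 CPM in the controls and at 19.7, 13.8 and 27.7 CPM after SN-011, again without overlap (log2 fold change −0.84, standard error 0.26, adjusted p = 0.236). In the heart, the controls were at 188, 209 and 250.9 CPM and the SN-011 samples at 143, 132 and 207 CPM. Here SN-011 replicate 3 exceeded the lowest control (log2 fold change −0.43, standard error 0.19, adjusted p = 0.221). The value was −0.67 without it. In the stomach, *Stat2* spread from 132 to 351 CPM among the controls, with replicate 1 lowest, and was at 161 to 280.3 CPM after SN-011. This spread covered the difference between the groups (log2 fold change −0.33, standard error 0.41), which was −0.67 without control replicate 1 and −0.09 without control replicate 3.

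*Irf9* (ENSMUSG00000002325, chr14:55603571-55610030, plus strand) is the DNA-binding partner of *Stat2* in ISGF3. In the tongue, it was at 139.7, 159 and 182 CPM in the controls and at 120.3, 119 and 144 CPM after SN-011. Only the highest treated sample reached the lowest control (log2 fold change −0.33, standard error 0.15, adjusted p = 0.413). In the muscle, the controls were at 27.8, 27.7 and 34.0 CPM and the treated samples at 21.9, 6.85 and 24.5 CPM. The log2 fold change there was −0.74 (standard error 0.44), and −0.36 without SN-011 replicate 2, the library with few genes. The heart and the stomach gave overlapping groups, with log2 fold changes of −0.02 (standard error 0.17) and −0.11 (standard error 0.24). *Irf9* shares 123 exon bases with *Rnf31* on the same strand, so that reads there may be assigned to neither gene or to the other.

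*Stat3* (ENSMUSG00000004040, chr11:100885098-100939540, minus strand), the STAT through which interleukin 6 and related cytokines act, had a negative log2 fold change in the tongue and muscle and overlapping groups in the heart and stomach. In the tongue, it was at 146, 192 and 206 CPM in the controls and at 133, 121 and 130.4 CPM after SN-011, without overlap (log2 fold change −0.50, standard error 0.15, adjusted p = 0.313). Without control replicate 1 the tongue value was −0.63, with an adjusted p of 0.0131 in that same fit. In the muscle, the controls were at 87.5, 77.4 and 79.7 CPM and the treated samples at 71.4, 70.3 and 68.0 CPM, also without overlap (log2 fold change −0.22, standard error 0.11, adjusted p = 0.394). In contrast, the groups overlapped in the heart, with 182 to 221 CPM in the controls and 192 to 213 CPM after SN-011 (log2 fold change 0.05, standard error 0.12). They also overlapped in the stomach, with 98.5 to 153 CPM and 117 to 179.8 CPM (log2 fold change 0.23, standard error 0.28). The stomach value was 0.07 without control replicate 3, 0.08 without SN-011 replicate 1 and 0.36 without either control replicate 1 or SN-011 replicate 2. None of the 6 differences in this effect between tissues passed the test of the difference for *Stat3* (adjusted p from 0.198 upward), except for the stomach minus the muscle when libraries were scaled by size alone (0.93, adjusted p = 0.0258). In that fit, 274 of 19731 genes were called lower and 1510 higher. The median of all genes was 0.62 there, against 0.28 with TMM.

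**Figure D2:**
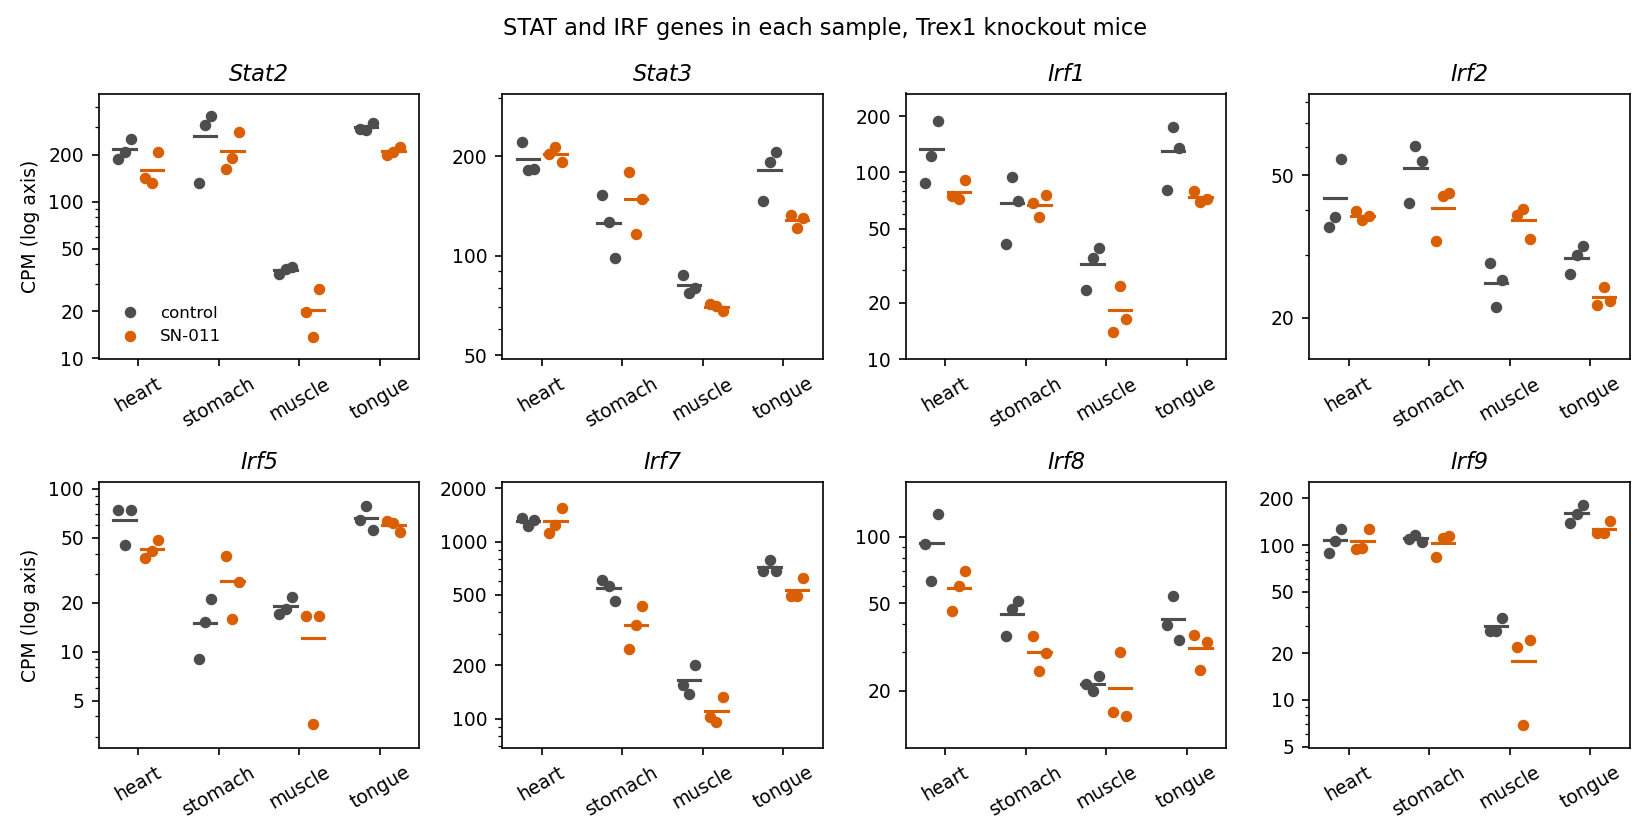
Level of each member in each of the 24 samples, as CPM on a log axis scaled within each tissue, with control samples in grey and SN-011 samples in orange and a line at each group's mean. *Stat2* in the tongue separates at 286 to 318 against 198 to 224 CPM, and muscle SN-011 replicate 2 is the lowest point for *Irf5* (3.59 CPM) and *Irf9* (6.85 CPM).

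*Irf1* (ENSMUSG00000018899, chr11:53770014-53778374, plus strand) encodes an activator that is induced by interferon and that drives antigen presentation and chemokine genes. In the tongue, *Irf1* was at 81.0, 175 and 135 CPM in the controls and at 79.7, 69.9 and 72.1 CPM after SN-011. The groups did not overlap, although control replicate 1 lay within 2 CPM of the highest treated sample (log2 fold change −0.82, standard error 0.26, adjusted p = 0.331). Without that control, in the fit with 8.04% of genes lower, the value was −1.07 (adjusted p = 0.00515). In the heart, the controls were at 87.3, 122 and 189 CPM and the treated samples at 74.4, 71.9 and 90.8 CPM. Control replicate 3 was the highest of them, and the log2 fold change of −0.75 (standard error 0.25, adjusted p = 0.133) was −0.41 without it. That library also had the highest summed markers of B cells (347 CPM over 6 genes, against 25.9 to 55.7 CPM in the other heart controls and 13.0 to 154 CPM after SN-011) and of T cells (243 CPM over 8 genes, against 125 to 197 CPM and 105 to 160.5 CPM). The part of these cells in the result was not tested, and fewer cells of a type cannot be told apart from less RNA per cell in tissue samples. In the muscle, *Irf1* was at 23.5, 34.6 and 39.2 CPM in the controls and at 14.0, 24.7 and 16.5 CPM after SN-011, and SN-011 replicate 2 was above the lowest control (log2 fold change −0.82, standard error 0.29, adjusted p = 0.282). Without this library the muscle value was −1.09 with an adjusted p of 0.0454, and 3.8% of all genes were called lower. The stomach groups overlapped at 41.5 to 95.03 CPM and 57.8 to 75.4 CPM (log2 fold change −0.03, standard error 0.32).

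*Irf2* (ENSMUSG00000031627, chr8:46739732-46847458, plus strand), a factor that competes with *Irf1* for the same sites and was first known as a repressor, did not follow one direction. In the muscle, it was at 28.4, 21.4 and 25.5 CPM in the controls and at 38.7, 40.2 and 33.2 CPM after SN-011. All 3 treated samples were above the controls, which held for 14.7% of all genes (log2 fold change 0.57, standard error 0.16, adjusted p = 0.216). In the tongue, the order was the opposite, with 26.6, 30.04 and 31.8 CPM in the controls and 21.7, 24.5 and 22.3 CPM after SN-011 (log2 fold change −0.37, standard error 0.14, adjusted p = 0.366). The stomach groups overlapped at 41.7, 60.3 and 54.6 CPM and at 32.8, 43.6 and 44.7 CPM (log2 fold change −0.37, standard error 0.24). The stomach value was −0.24 without SN-011 replicate 1 and −0.54 without control replicate 1. The heart groups overlapped as well, at 35.9, 38.1 and 55.6 CPM and at 39.6, 37.4 and 38.4 CPM (log2 fold change −0.17, standard error 0.17).

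*Irf2* was also the only member whose SN-011 effect passed a test of the difference between tissues. In the joint fit of 24 samples with interaction terms for 6 pairs of tissues, the effect in the stomach minus that in the muscle was −0.88 on the log2 scale (standard error 0.26, adjusted p = 0.0465 by edgeR's quasi-likelihood test, with 6.95% of all genes passing). Leaving out 1 library at a time gave adjusted p-values of 0.0273 to 0.145, and the call was lost in 8 of these 12 fits. It was also lost when libraries were scaled by size alone (−0.56, adjusted p = 0.243). By the same test, the adjusted p was 0.167 without a filter on low counts and 0.0594 with replicate number as a block. The muscle minus the tongue gave a difference of 0.85 (standard error 0.26, adjusted p = 0.358), where 0.0355% of all genes passed. No member passed in the other 5 pairs, where the share of all genes that passed was 2.01% for heart minus stomach, 0.00507% for heart minus muscle, 0% for heart minus tongue and 0.821% for stomach minus tongue.

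The ratio of *Irf1* to *Irf2* within a sample does not depend on library scaling. Computed from counts per kilobase of exon, with 1 count added to each gene, the log2 ratio in the muscle was 0.63, 1.59 and 1.52 in the controls and −0.57, 0.19 and −0.11 after SN-011. The groups did not overlap, and the mean log2 ratio differed by −1.41 (exact two-sided permutation p = 0.1, the smallest that 3 against 3 allows). In the heart, the log2 ratios were 2.18, 2.57 and 2.66 in the controls and 1.80, 1.84 and 2.13 after SN-011, likewise without overlap (difference −0.55, exact permutation p = 0.1). The tongue groups overlapped at 2.50 to 3.44 and 2.41 to 2.77 (difference −0.38, exact permutation p = 0.3), and the difference was −0.62 without control replicate 1 and −0.15 without control replicate 2. In the stomach, the mean log2 ratio was higher after SN-011 by 0.40, with overlapping groups (exact permutation p = 0.2), and by 0.23 without control replicate 1 or 0.24 without SN-011 replicate 1. The ratio of *Stat2* to *Stat3* overlapped between the groups in all 4 tissues, with differences of the mean log2 ratio of −0.50 (heart), −0.48 (stomach), −0.68 (muscle) and −0.02 (tongue). The stomach difference was −1.07 without control replicate 1, −0.16 without SN-011 replicate 1 and −0.05 without control replicate 3. With 1 sample left out, the muscle difference was −0.95 to −0.42 (without SN-011 replicate 3 and replicate 2) and the heart difference −0.74 to −0.34 (likewise). The tongue difference turned sign, to 0.11 without control replicate 1 and 0.05 without SN-011 replicate 1.

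**Figure D3:**
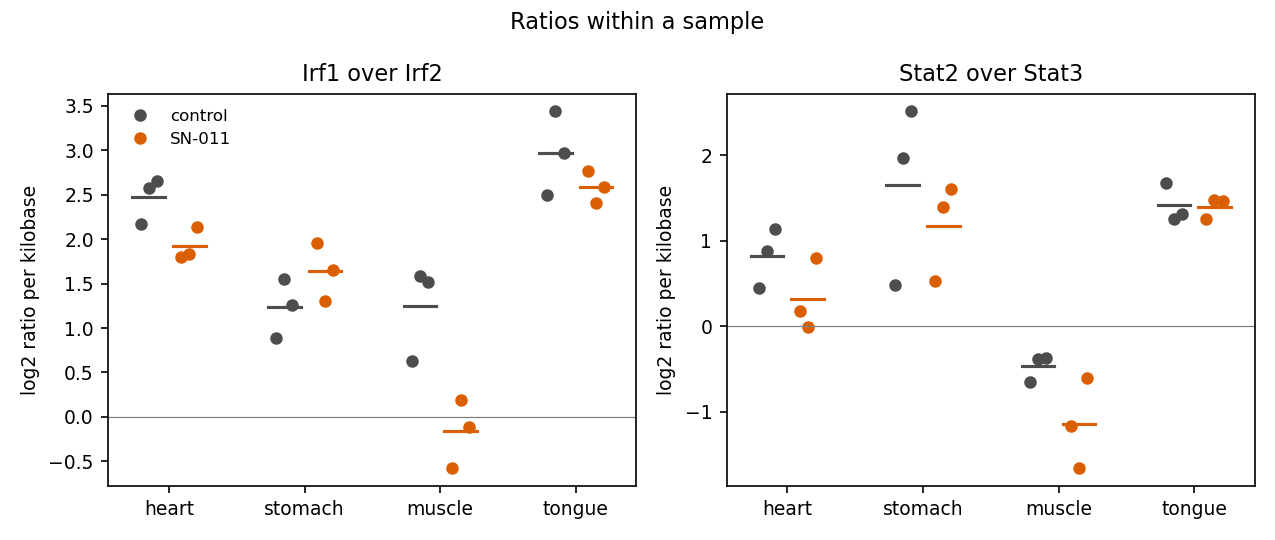
Log2 ratio of counts per kilobase of exon within each sample, *Irf1* over *Irf2* on the left and *Stat2* over *Stat3* on the right (grey controls, orange SN-011, line at the mean of 3 samples). The *Irf1* to *Irf2* ratio separates in the heart and in the muscle, where the controls lie between 0.63 and 1.59 and the SN-011 samples between −0.57 and 0.19.

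*Irf7* (ENSMUSG00000025498, chr7:141262706-141266481, minus strand) amplifies type I interferon production and is itself strongly induced by interferon. In the stomach, *Irf7* was at 604, 564 and 462 CPM in the controls and at 246, 339.6 and 435 CPM after SN-011. All treated samples were below all controls (log2 fold change −0.68, standard error 0.33, adjusted p = 0.249). In the muscle, the controls were at 155, 138 and 200.02 CPM and the treated samples at 103, 95.6 and 132 CPM (log2 fold change −0.58, standard error 0.19, adjusted p = 0.266). In the tongue, *Irf7* was at 679.8, 785 and 679 CPM and, after SN-011, at 494, 489.8 and 621 CPM (log2 fold change −0.42, standard error 0.15, adjusted p = 0.359). These 3 tissues thus all separated the groups, with SN-011 below. The heart did not. There the controls were at 1351, 1224 and 1331 CPM and the treated samples at 1112, 1241 and 1550 CPM, and the means were 1302 ± 68.1 and 1301 ± 225 CPM (SD, n = 3 each). The tests of the difference between the heart and each other tissue did not pass for *Irf7*, with interaction terms of 0.71 against the stomach (adjusted p = 0.274), 0.65 against the muscle (0.758) and 0.41 against the tongue, each with a standard error of 0.33.

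*Irf5* and *Irf8* are factors of immune cells, the former acting downstream of Toll-like receptors and the latter needed for macrophage and dendritic cell development. *Irf8* (ENSMUSG00000041515, chr8:120736358-120756694, plus strand) was in the heart at 92.6, 63.2 and 127 CPM in the controls and at 45.9, 59.98 and 69.8 CPM after SN-011. The highest treated sample exceeded the lowest control (log2 fold change −0.69, standard error 0.24, adjusted p = 0.152). The value was −0.42 without control replicate 3, the library with many B cell transcripts, and −0.90 (adjusted p = 0.0431) without control replicate 2, where 2.46% of all genes were called lower. In the stomach, *Irf8* was at 35.6, 46.8 and 51.4 CPM in the controls and at 35.5, 24.7 and 29.7 CPM after SN-011, separated by a margin of under 1 CPM (log2 fold change −0.57, standard error 0.25, adjusted p = 0.196). The tongue groups overlapped at 33.9 to 53.7 CPM and 24.9 to 35.9 CPM (log2 fold change −0.44, standard error 0.22, and −0.24 without control replicate 2). In the muscle, replicate 2 of the SN-011 group was at 30.1 CPM, above all controls (19.9 to 23.3 CPM), while the other treated samples were at 16.0 and 15.4 CPM, below them (log2 fold change −0.07, standard error 0.29).

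*Irf5* (ENSMUSG00000029771, chr6:29526625-29541871, plus strand) was in the heart at 73.7, 45.2 and 74.5 CPM in the controls and at 37.4, 41.3 and 48.5 CPM after SN-011. Control replicate 2 lay among the treated samples (log2 fold change −0.61, standard error 0.19, adjusted p = 0.129). Without it the adjusted p was 0.0289 at −0.80, again with 2.46% of all genes lower. In the stomach, *Irf5* was at 8.95, 15.2 and 20.9 CPM in the controls and at 38.8, 16.0 and 26.7 CPM after SN-011, overlapping groups with the largest positive log2 fold change of any member (0.85, standard error 0.41, adjusted p = 0.239). It was 0.51 without SN-011 replicate 1, the highest sample, and 0.56 without control replicate 1, the lowest. Markers of squamous epithelium, keratins that also line the forestomach, were in the stomach at 85.5 to 199 CPM in the controls and at 360.3 to 1167 CPM after SN-011, summed over 6 genes, and their part in the result was not tested. In the muscle, *Irf5* was at 16.9, 18.4 and 21.5 CPM in the controls and at 16.5, 3.59 and 16.4 CPM after SN-011. The log2 fold change of −0.63 (standard error 0.53) became −0.20 without SN-011 replicate 2. The tongue groups overlapped at 55.5 to 78.5 CPM and 54.6 to 63.4 CPM (log2 fold change −0.14, standard error 0.16, and −0.26 without control replicate 3 or −0.0015 without control replicate 2). *Irf5* shares 411 exon bases with *Tnpo3* on the opposite strand, and although the study's methods describe strand-specific libraries, the sources used here do not state whether strand was used in counting.

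Markers of the immune cells that express these factors were compared in the same samples, as sums of CPM scaled over all 24 samples. In the heart, 12 macrophage markers summed to 1831 to 2360 CPM in the controls and to 1760 to 2386 CPM after SN-011, so these ranges overlapped while *Irf5* and *Irf8* had log2 fold changes of −0.61 and −0.69. The 10 dendritic cell markers summed to 465 to 554 CPM in the heart controls and 319 to 510 CPM after SN-011. In the stomach, the dendritic markers were at 289 to 367 CPM in the controls and 146 to 210.5 CPM after SN-011, without overlap. The sums were also without overlap in the muscle (184 to 255 and 128 to 162 CPM) and the tongue (388 to 514 and 271.5 to 342 CPM). Most of each sum was the interferon-induced *Bst2*, at 298 ± 43.8 and 146 ± 36.9 CPM in the stomach on the same scale (SD, n = 3 each). The 9 dendritic markers other than *Bst2*, a sum chosen after seeing the data, overlapped between the groups in every tissue, at 31.6 to 38.9 and 15.0 to 40.2 CPM in the stomach. Of the full list with *Bst2*, 9 markers were tested in that organ, and 5, *Bst2* among them, had a negative log2 fold change. In the tongue, macrophage markers were at 772 to 1845 CPM and 1089 to 1389 CPM, and in the muscle at 879 to 949.5 CPM and 789 to 1225 CPM. The stomach, where *Irf5* had its log2 fold change of 0.85, had 437 to 646 CPM of macrophage markers in the controls and 348 to 1032 CPM after SN-011, with 3 of 12 genes negative. Its 6 neutrophil markers were at 2.21 to 5.401 CPM and 8.66 to 17.9 CPM, without overlap. These sums were of genes at low levels. Only 4 of the 6 passed the filter on low counts, and *Retnlg* had no count in the stomach controls. *S100a9* was there at 0.443 ± 0.180 CPM (SD, n = 3), near the floor of 0.163 to 0.210 CPM. In the tongue, where 5 members were separated, the 6 B cell markers summed to 21.4 to 45.8 CPM in the controls and 13.2 to 17.2 CPM after SN-011, without overlap. Most of this tongue sum was 1 gene, *Blnk*, at 34.2 ± 16.2 and 14.7 ± 0.442 CPM when scaled within the tongue (SD, n = 3 each). Only 4 of the 6 genes passed the filter on low counts there. The B cell sums overlapped in the stomach (127 to 187 and 99.6 to 169.6 CPM) and the muscle (11.9 to 27.9 and 5.33 to 19.6 CPM). The sums of 8 T cell markers overlapped in all 4 tissues, among them the stomach (55.9 to 65.1 and 19.97 to 64.6 CPM) and the tongue (83.6 to 138 and 78.6 to 117 CPM). By edgeR's quasi-likelihood test, no macrophage, dendritic cell, B cell, T cell or neutrophil marker passed the adjusted threshold in any tissue. The part of these cells in the members' values was not tested. Tongue control replicate 3, which was highest for *Stat2*, *Stat3* and *Irf9* among the tongue samples, had 315 CPM of 6 neutrophil markers, against 6.20 to 12.2 CPM in the other tongue samples.

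Levels were then compared across tissues and between members, as RPKM, the count divided by exon length and by library size, scaled over all 24 samples. In the controls, *Irf7* had the highest RPKM of the members in every tissue, at 309 ± 18.4 for the heart, 160.1 ± 15.3 for the tongue, 120.4 ± 19.6 for the stomach and 71.9 ± 15.1 for the muscle (SD, n = 3 each). *Stat2* was second in the tongue (42.6 ± 2.38), the stomach (36.9 ± 15.5) and the heart (32.7 ± 4.80). With the length of the longest coding transcript it came after *Irf1* in the heart. In the muscle, it was at 10.2 ± 0.720 RPKM, below *Stat3* at 14.1 ± 0.683. *Irf2* and *Irf8* were at the low end, at 3.37 to 5.88 and 5.04 to 12.0 RPKM as group means. *Irf5* ranged from 4.28 ± 1.59 RPKM in the stomach to 19.9 ± 5.27 in the heart. With that length, *Irf7* stayed first in every tissue, but the rank changed for 6 members in the heart, 6 in the muscle, 2 in the tongue and 0 in the stomach, so that most members cannot be ranked against their neighbours in the heart and the muscle.

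**Figure D4:**
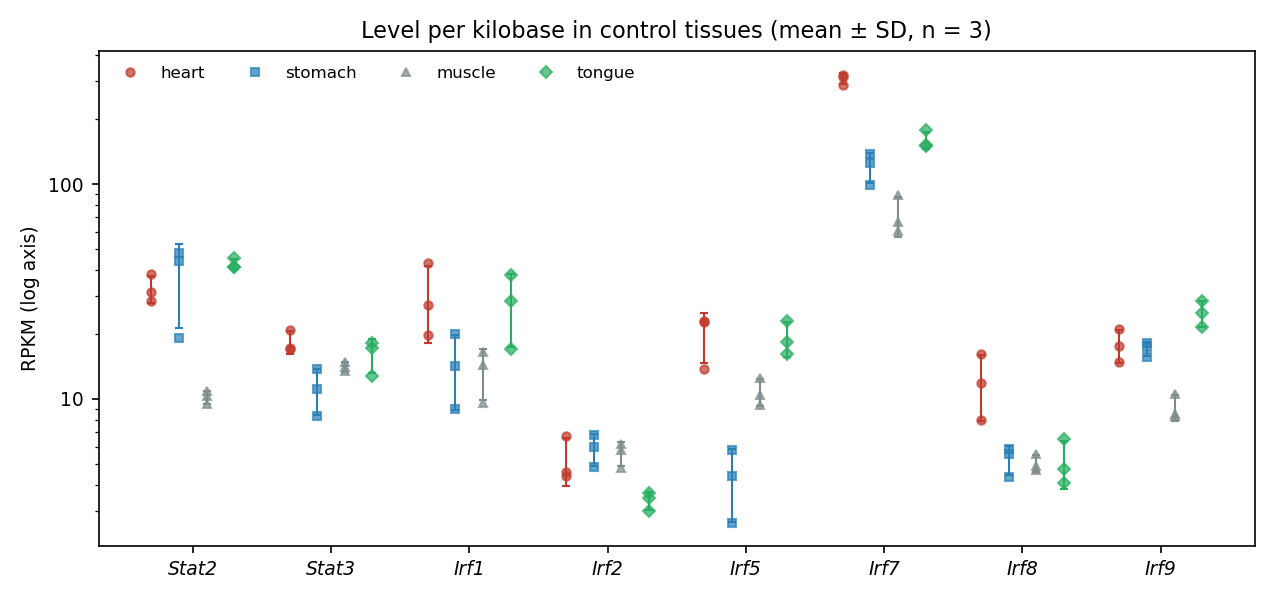
RPKM of each member in the 3 control samples of each tissue on a log axis, with bars from the mean minus 1 SD to the mean plus 1 SD. *Irf7* lies above all other members in every tissue, from 71.9 in the muscle to 309 in the heart, and *Irf5* is lowest in the stomach.

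Differences between control tissues were tested in the joint fit, over 6 pairs of tissues. Between the heart and the stomach, 5 of 8 members differed at an adjusted p under 0.05 (42.5% of all genes), all higher in the heart (21% of all genes in that direction). These were *Irf5* (4.64-fold, adjusted p = 0.00036), *Irf7* (2.57-fold, 9.63e-05), *Irf8* (2.28-fold, 0.00101), *Irf1* (2.08-fold, 0.00941) and *Stat3* (1.66-fold, 0.00339). *Stat2*, *Irf2* and *Irf9* did not pass between these organs, with log2 differences of −0.18, −0.17 and 0.06 (standard errors 0.30, 0.19 and 0.31). Between the heart and the tongue, 3 members differed (29.1% of all genes), with *Irf8* 2.35-fold, *Irf7* 1.93-fold and *Irf2* 1.55-fold higher in the heart (adjusted p = 0.00123, 0.00392 and 0.0135). Between the stomach and the tongue, 4 members differed (36.9%). *Irf5* was 4.48-fold, *Irf1* 1.93-fold and *Stat3* 1.45-fold higher in the tongue (adjusted p = 0.000544, 0.0208 and 0.0275), whereas *Irf2* was 1.74-fold higher in the stomach (adjusted p = 0.00196). The 12 differences named here as passing kept their direction and their call with DESeq2's size factors and with library size alone. Without the filter on low counts, *Irf2* between the heart and the tongue (adjusted p = 0.0898) and *Stat3* between the stomach and the tongue (0.0847) lost the call, and the sign for *Irf9* between the heart and the stomach turned with DESeq2's size factors (−0.01). The p-values are those of edgeR's quasi-likelihood test, adjusted by Benjamini-Hochberg. Leaving out 1 control at a time lost the call for *Irf1* against the stomach without heart control 3 (adjusted p = 0.0882) or stomach control 1 (0.0574), and for *Irf2* against the tongue without heart control 3 (0.131) or tongue control 1 (0.0602). Between the stomach and the tongue it lost *Stat3* without stomach control 2 or 3 or tongue control 2 or 3 (adjusted p = 0.0586 to 0.129) and *Irf1* without stomach control 1 or 3 or tongue control 2 (0.0528 to 0.134).

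The muscle needs a separate account, because 7 contractile marker genes summed to 214275 to 242661 CPM in its controls. After SN-011 the sum was 263051 to 275231 CPM, without overlap. The TMM factors of the muscle were 0.647 to 0.675 in the controls and 0.578 to 0.627 after SN-011, against 0.893 to 1.45 elsewhere. The part of this difference in the members' SN-011 values was not tested. With TMM, *Stat2* was 3.20-fold higher in the heart, 3.62-fold in the stomach and 4.17-fold in the tongue than in the muscle. *Irf7* was higher than in the muscle by 4.30-fold, 1.67-fold and 2.23-fold in the same organs, and *Irf9* by 1.95-fold, 1.88-fold and 2.76-fold. These 9 differences passed under TMM, DESeq2's size factors and library size alone alike. *Irf1* and *Irf8* were also higher in the heart than in the muscle under all 3 scalings (2.22-fold and 2.38-fold with TMM), and *Irf1* was higher in the tongue (2.06-fold). In contrast, *Irf2* was 1.66-fold higher in the muscle than in the tongue with TMM (log2 difference 0.73, adjusted p = 0.00372), but its log2 difference was −0.07 with library size alone. *Irf5* was 2.51-fold higher in the muscle than in the stomach with TMM (adjusted p = 0.013), and did not pass with library size alone (adjusted p = 0.405). The median of all genes moved from 0.11 to 0.94 for the heart against the muscle when library size alone was used. In all, 5 members differed between the heart and the muscle, all higher in the heart (17% of all genes, 33.7% in either direction), 4 between the stomach and the muscle (51.6%), of which 3 were higher in the stomach (27.3%), and 5 between the muscle and the tongue (38.1%). Without muscle control replicate 2, *Irf7* against the stomach (adjusted p = 0.0592) and *Irf9* against the stomach (0.0669) and the heart (0.0807) did not pass. *Irf9* also failed without muscle control 1 (0.0692 and 0.0833), stomach control 2 (0.0538) or heart control 3 (0.0913), as did *Irf1* against the heart without heart control 3 (0.0711), *Irf1* against the tongue without muscle control 1 (0.066) or tongue control 2 (0.0875), and *Irf5* against the stomach without stomach control 1 (0.062).

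To see which transcripts varied with each member, log2 CPM (with 0.5 CPM added) was centred within each tissue and Pearson's r was taken over the 24 samples against 11772 genes, as a description across samples that share library and treatment effects. *Stat2* was most like *Parp14* (r = 0.95), *Adar* (0.92) and *Rnf213* (0.90). *Irf7* was most like *Bst2* (0.95), the interferon-induced tetherin, followed by *Apol9b* and *Oasl2* (0.89 each). *Irf9* was most like *Oas1g* (0.98), *Oas1a* (0.96) and *Plekha6* (0.96), but these were 0.88, 0.78 and 0.79 without muscle SN-011 replicate 2. *Irf1* was most like *Irgm2* (0.85), an interferon-induced GTPase, *Traf3* (0.83) and *Tapbpl* (0.82). *Irf8* was most like *Evi2a* (0.85), *Gzmb* (0.84) and the dendritic cell integrin *Itgax* (0.83). *Irf2* was most like *Tor3a* (0.85), *Usp18* (0.78) and *Mrps2* (0.74), and *Usp18*, which removes ISG15 and restrains the interferon receptor, was at 56.0 ± 1.80 CPM in the muscle controls and 91.7 ± 7.53 CPM after SN-011. *Stat3* was most like *Vat1* (0.81), *Ppp1r2* (0.81) and *Crispld2* (0.79), and *Irf5* was most like *Fzd1* (0.94), *Mical1* (0.94) and *Rassf5* (0.93), which were 0.86, 0.85 and 0.84 without that muscle library.

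Among the members themselves, r was highest for *Stat2* and *Irf9* (0.75), for *Irf7* and *Irf9* (0.70) and for *Stat2* and *Irf1* (0.67). *Irf2* had no r above 0.35 with any other member on this scale, but after subtracting the mean of each group, which removes treatment as well, its r was 0.49 with *Stat2* and 0.48 with *Irf1*. By the same subtraction, r was 0.63 for *Stat2* and *Irf9*, 0.66 for *Irf7* and *Irf9* and 0.39 for *Stat2* and *Irf1*. The library muscle SN-011 replicate 2 set some of these values, since *Irf5* and *Irf9* had r = 0.65 with it and −0.13 without it. For *Stat2* and *Irf9*, r was 0.63 without it. The highest pairs without it were *Stat2* and *Irf1*, and *Irf7* and *Irf9* (0.76 each).

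**Figure D5:**
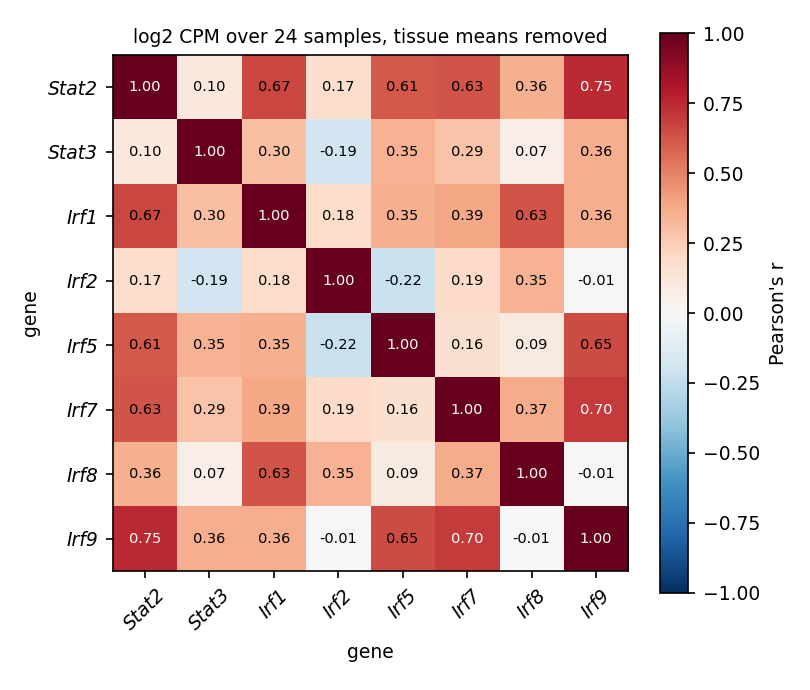
Pearson's r of log2 CPM between members over 24 samples after subtracting each tissue's mean, from −1 (blue) to 1 (red). *Stat2*, *Irf7* and *Irf9* are joined by r of 0.63 to 0.75, and *Irf2* stays at or below 0.35 with every other member. Without muscle SN-011 replicate 2, r of *Stat2* and *Irf7* was 0.50.

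Genes around the members in the pathway were counted in the same fits. Of 9 interferon receptor and Janus kinase genes, 0 passed the adjusted threshold in any tissue, and the gene with the smallest p was *Jak2* in the heart (64.7 ± 9.58 against 46.9 ± 1.95 CPM, log2 fold change −0.46, adjusted p = 0.0988) and *Ifngr2* in the stomach (79.8 ± 15.7 against 42.4 ± 6.995 CPM, −0.91, adjusted p = 0.093), both by edgeR's quasi-likelihood test with n = 3 per group. It was *Il6st* in the muscle (0.30, adjusted p = 0.362) and *Jak2* again in the tongue (−0.40, adjusted p = 0.369). Of 11 negative regulators of STAT signalling, 0 passed. *Socs3*, the inhibitor of STAT3 signalling, was at 29.1 ± 7.59 CPM in the heart controls and 13.6 ± 2.39 CPM after SN-011 (log2 fold change −1.09, adjusted p = 0.0543), while *Stat3* itself had a log2 fold change of 0.05 there. *Usp18* was at 169 ± 40.5 CPM in the stomach controls and 68.9 ± 23.9 CPM after SN-011 (log2 fold change −1.30, adjusted p = 0.0898), opposite in sign to its muscle value (0.71, adjusted p = 0.0948). *Socs1* was at 32.5 ± 16.9 CPM in the tongue controls and 11.7 ± 3.29 CPM after SN-011 (−1.47, adjusted p = 0.310). Of the 8 other STAT and IRF genes, 0 passed in any tissue, with a negative log2 fold change for 4 of 8 tested (heart), 6 of 8 (stomach), 3 of 6 (muscle) and 6 of 8 (tongue).

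Of 22 genes driven through the ISRE, 0 passed the adjusted threshold, but the log2 fold change was negative for 21 in the heart and for all 22 in each of the stomach, muscle and tongue (51.4%, 49.8%, 55.5% and 51.5% of all genes). At an unadjusted p under 0.05, 16, 20, 14 and 20 of them were lower (11.6%, 11.4%, 5.8% and 7.33% of all genes). Their median log2 fold change was −0.58 (heart), −1.18 (stomach), −1.04 (muscle) and −0.80 (tongue). *Mx1*, an antiviral GTPase, was at 113 ± 18.1 CPM in the tongue controls and 43.1 ± 2.65 CPM after SN-011 (log2 fold change −1.39, adjusted p = 0.221). In the stomach, *Rsad2*, which encodes viperin, was at 113 ± 12.0 and 32.6 ± 7.47 CPM (log2 fold change −1.79, adjusted p = 0.0618). The ubiquitin-like *Isg15* was at 34.8 ± 6.49 CPM in the muscle controls and 13.4 ± 1.49 CPM after SN-011 (−1.38, adjusted p = 0.0764), and *Mx1* in the heart had a log2 fold change of −1.05 (adjusted p = 0.0565). Of 15 genes listed as IRF1 targets, 2 fell in the heart, where 0.328% of all genes were lower at this threshold. These were the chemokine *Cxcl10*, from 111 ± 36.2 to 39.5 ± 9.36 CPM (log2 fold change −1.49, adjusted p = 0.0332), and the GTPase *Gbp5*, from 97.8 ± 24.01 to 44.4 ± 10.4 CPM (−1.14, adjusted p = 0.0481), the latter named after its value was seen. Both calls were lost without heart control 3 or any 1 of the SN-011 samples (adjusted p = 0.0609 to 0.194 for *Cxcl10* and 0.0788 to 0.234 for *Gbp5*) and in the joint fit (0.736 and 0.828), and that of *Gbp5* also without control 1 (0.0602). Their log2 fold changes stayed negative in each of these fits. The median over these 15 genes was −0.45, −1.09, −0.77 and −0.63, with the tissues in the same order, and the gene of smallest p was *Cxcl9* in the stomach (−1.92, adjusted p = 0.0618), *Gbp3* in the muscle (−0.95, adjusted p = 0.131) and *Gbp5* in the tongue (−1.41, adjusted p = 0.263). Both lists were chosen with earlier results of these data known, so their direction is not independent evidence. Whether the listed genes depend on IRF1 in these tissues was not tested.

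Of 15 genes known to be driven by STAT3, 14 were tested in the heart, and *Lrg1* rose from 59.1 ± 10.6 to 123 ± 27.1 CPM (log2 fold change 1.05, adjusted p = 0.0416), where 0.52% of all genes were higher at this threshold. It encodes a secreted glycoprotein of the acute phase. Its call was lost without control 3 or any 1 of the SN-011 samples (adjusted p = 0.0846 to 0.181), in the joint fit (0.684) and with library size alone (0.0503), with a log2 fold change of 0.86 to 1.14 in these fits. In the stomach, the log2 fold change was positive for all 14 tested, with a median of 1.00, where 49.8% of all genes were negative. Of these 14, 6 were higher at an unadjusted p under 0.05 (13.2% of all genes). In the same stomach libraries the summed neutrophil markers, genes at low levels (2.21 to 5.401 and 8.66 to 17.9 CPM), were also higher after SN-011 without overlap. So were the squamous markers (85.5 to 199 and 360.3 to 1167 CPM). The part of these markers in the list's values was not tested. *Saa3*, another acute phase gene, was there at 4.57 ± 1.58 CPM in the controls and 63.3 ± 46.9 CPM after SN-011 (log2 fold change 3.80, adjusted p = 0.0674). The median of this list was 0.01 in the heart, 0.55 in the muscle and 0.01 in the tongue, beside log2 fold changes of *Stat3* of 0.05, −0.22 and −0.50. A negative log2 fold change was found for 7 of 14 listed genes in the heart (51.4% of all genes), 5 of 15 in the muscle (55.5%) and 7 of 15 in the tongue (51.5%). The list also holds *Socs3*, whose log2 fold change in the heart was −1.09. *Lrg1* was at 23.2 ± 7.74 CPM in the muscle controls and 74.4 ± 15.1 CPM after SN-011 (1.68, adjusted p = 0.115), and *Saa3* in the tongue at 10.1 ± 2.09 and 29.4 ± 17.6 CPM (1.54, adjusted p = 0.288).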

How the data were processed

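PolyA-selected RNA was sequenced on an Illumina HiSeq. The authors trimmed the reads, mapped them with HISAT2 and deposited a raw count for each gene and sample, without normalization. The submitters' processing notes name HTSeq and mm10, while the methods name featureCounts, and the methods describe strand-specific libraries, but the strand setting of the counting is not given in the sources used here. Samples were grouped by tissue and treatment in the labels. The labels do not say whether samples of a group come from separate mice, while the paper gives n = 3 per group for these tissues. In every tissue, control replicate 1 had the female pattern and the other controls the male pattern, so the controls did not all come from the same mouse. Where samples of a group share a mouse, p-values measure a spread that may be technical.

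R 4.3.3 and edgeR 4.0.16 were used to fit every tissue by itself. Low genes were removed by filterByExpr (count of at least 10, total of at least 15), TMM scaled the libraries, the prior was 0.125 counts and the test was quasi-likelihood, and p-values were adjusted by Benjamini-Hochberg over all genes tested (16151 for heart, 17031 for stomach, 14198 for muscle, 16587 for tongue). One model of the 24 samples together (19731 genes), the joint fit, gave the tests of tissues and interactions. Standard errors are the fitted change divided by the root of F. CPM was scaled by TMM within each tissue for the SN-011 comparison and over all samples for levels between tissues. RPKM used merged exons of GENCODE M21, which holds 54495 of the gene identifiers. Ratios were compared by exact permutation. Named genes were the 8 members, the 3 genes most like each by Pearson's r, and the gene of smallest p in each pathway list. Of the other STAT and IRF genes counts alone are given. Members, lists and tests were chosen with earlier results of these data known. The test was tested on simulated data. The alternatives were DESeq2 1.42.0 and its size factors, edgeR's exact test, no filter, the joint fit, a replicate block and each sample left out. Library size alone and the length of the longest coding transcript were added after seeing the data. Tables and figures were made with Python 3.11.15, pandas 2.3.3, numpy 2.4.6 and matplotlib 3.10.9.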

Additional observations from a re-analysis of the deposited data

Results flagged for a closer look

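*Irf2* drew attention because its SN-011 effect differed between tissues. The effect in the stomach minus that in the muscle was −0.88 on the log2 scale in the joint fit (standard error 0.26, adjusted p = 0.0465 by edgeR's quasi-likelihood test). The call was lost without a filter on low counts (adjusted p = 0.167), with library size alone (0.243) and with replicate number as a block (0.0594). It was also lost in 8 of 12 fits with 1 library left out (up to 0.145). All 3 SN-011 samples of the muscle were above all 3 controls (log2 fold change 0.57), and all 3 of the tongue were below them (−0.37). The difference between these opposite orders, 0.85 in the joint fit, did not pass (adjusted p = 0.358).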

How the results depend on the processing

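Of the SN-011 fold changes of members, those near 0 turned sign. With library size alone, *Stat3* in the heart was −0.10, *Irf1* in the stomach 0.12 and *Irf9* in the stomach 0.065. With the replicate block, *Irf1* in the stomach was 0.038. Leaving out 1 sample at a time gave −0.31 to 0.050 for *Irf2*, −0.16 to 0.10 for *Irf7* and −0.19 to 0.11 for *Irf9* in the heart, −0.32 to 0.27 for *Irf1* and −0.19 to 0.026 for *Irf9* in the stomach, and −0.46 to 0.10 for *Irf8* in the muscle. The number of members lower was 3 in the heart without a filter (3.92% of all genes lower) and with DESeq2 (4.04%), 1 in the stomach in the joint fit (7.18%), and with DESeq2 2 in the muscle (2.9%) and 1 in the tongue (1.69%). With 1 sample left out it was 0 to 2 in the heart (2 without control replicate 2, with 2.46% of all genes lower), 0 to 1 in the muscle (1 without SN-011 replicate 2, 3.8%) and 0 to 3 in the tongue (3 without control replicate 1, 8.04%). The muscle median was −0.82 with library size alone and −0.73 to −0.41 with 1 sample left out. The heart median was −0.43 to −0.16 (−0.16 without control replicate 3) and the stomach median −0.43 to −0.10 (−0.43 without control 1, −0.10 without SN-011 replicate 1), and −0.45 and −0.08 with library size alone. With library size alone, 8 members differed between the heart and the muscle (48.4% of all genes, whose median log2 difference was 0.94 in place of 0.11). With 1 control left out, 3 to 5 differed there (24.9% to 28% of all genes), 2 to 4 between the stomach and the muscle (43.4% to 48.3%) and 2 to 4 between the stomach and the tongue (29.8% to 34.7%). The difference of the *Irf2* effect between the stomach and the muscle was called in 0 members without a filter and 0 with the replicate block (adjusted p = 0.0594), and in 0 to 1 with 1 sample left out. Of all genes, 363 were lower and 700 higher of 34706 without a filter, and 515 and 775 of 19731 with the block. With 1 sample left out, the calls ran from 171 lower and 262 higher of 20359 (without stomach SN-011 replicate 1) to 1331 and 1096 of 20409 (without stomach control replicate 3). The cause was not tested. Replicate numbers did not pair control and SN-011 samples: the mean correlation of same-numbered deviations was −0.02 (heart), 0.06 (stomach), 0.03 (muscle) and −0.25 (tongue), and the block changed no other call. Control samples of the same number in different tissues had a mean correlation of 0.245 (−0.14 to 0.55), and those of other numbers −0.12, so the tissues compared may not be independent. Library size alone shifted the median of all genes by −0.15 (heart), 0.17 (stomach), −0.23 (muscle) and 0.08 (tongue).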
